A study of Mus musculus with 3 samples.

Results

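*Aldh1a1*, *Cyp2f2*, *Cyp2a5*, *Gsta4*, *Gpx2*, *Prdx3*, *Cbr2*, *Gstm1* and *Gsto1* encode enzymes that oxidize, reduce or conjugate foreign chemicals, or that remove peroxides. These 9 genes, of the 32285 in the count tables, were taken by name and followed in *Ltf+*, duct, acinar and fibroblast cells of the mouse lacrimal gland (LG), the gland that makes the watery part of tears. The single-cell RNA sequencing data come from 2-month-old C57BL/6J mice without a transgene or treatment, in 3 libraries: 1 of female mice and 2 of male mice, each made from the combined LGs of 3 animals. A library is thus a pool, and the spread between libraries is not the spread between animals. The female and male libraries came from separate sequencing cores and days, so that sex cannot be told apart from either, and with a single female pool the sexes were not tested against each other.

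Xenobiotic metabolism runs in steps. Cytochromes P450, aldehyde dehydrogenases and carbonyl reductases first oxidize or reduce a lipophilic compound, which often makes it more reactive, and glutathione transferases then couple the reactive group to glutathione so that it can be exported. Glutathione peroxidases and peroxiredoxins reduce hydrogen peroxide and lipid peroxides, at the cost of glutathione or thioredoxin and, in the end, of NADPH. These enzymes are best known from liver and from airway club cells, and in a gland whose secretion bathes the ocular surface the ducts are the last epithelium that tears pass.

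The members lie on 6 chromosomes (mm10, protein-coding genes). *Cyp2a5* (chr7:26835305-26843548, plus strand) and *Cyp2f2* (chr7:27119909-27133660, plus strand) are members of a cluster of *Cyp2* genes and lie 276 kb apart. *Aldh1a1* (chr19:20492715-20643465, plus strand), *Gsto1* (chr19:47854970-47864790, plus strand) and *Prdx3* (chr19:60864051-60874556, minus strand) share a chromosome, with 12999 kb between the closest pair. *Gstm1* lies at chr3:108012255-108017973, *Gpx2* at chr12:76792333-76795554 and *Cbr2* at chr11:120729489-120732114, all on the minus strand, and *Gsta4* at chr9:78182774-78209349 on the plus strand. Since a 3′ kit reads the end of a transcript, the last 500 bases of each were searched for stretches of 60 bases that another gene also holds. None of 45 stretches was shared for 6 members, 3 were shared with *Cyp2a4* for *Cyp2a5*, 8 with the pseudogene *Gpx2-ps1* for *Gpx2* and 14 with *Gm11771* for *Cbr2*, so counts of these 3 genes could in part be split or lost.

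The 250 bases before the RefSeq start site (GRCm38.p6) are shown for 4 members, in the direction of transcription. *Cyp2f2* and *Cyp2a5* are the neighbours that set *Ltf+* cells apart from duct cells, and *Gstm1* was high in *Ltf+* cells and in fibroblasts. *Gpx2* was close to 0 in fibroblasts and in acinar cells taken as a whole. Capitals mark a match to a TATA box (TATAAA) or to the core of the xenobiotic response element (GCGTG).
*Cyp2f2*, chr7:27119705-27119954, plus strand: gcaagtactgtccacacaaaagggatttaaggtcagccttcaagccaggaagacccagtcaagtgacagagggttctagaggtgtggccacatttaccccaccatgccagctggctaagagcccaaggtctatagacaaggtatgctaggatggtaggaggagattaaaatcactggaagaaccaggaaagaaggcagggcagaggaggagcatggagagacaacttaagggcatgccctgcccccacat
*Cyp2a5*, chr7:26835089-26835338, plus strand: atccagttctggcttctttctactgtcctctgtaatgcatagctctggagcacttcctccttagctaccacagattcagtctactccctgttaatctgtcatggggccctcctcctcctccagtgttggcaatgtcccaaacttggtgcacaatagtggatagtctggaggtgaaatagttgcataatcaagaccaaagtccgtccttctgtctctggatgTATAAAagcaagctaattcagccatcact
*Gpx2*, chr12:76795555-76795804, minus strand: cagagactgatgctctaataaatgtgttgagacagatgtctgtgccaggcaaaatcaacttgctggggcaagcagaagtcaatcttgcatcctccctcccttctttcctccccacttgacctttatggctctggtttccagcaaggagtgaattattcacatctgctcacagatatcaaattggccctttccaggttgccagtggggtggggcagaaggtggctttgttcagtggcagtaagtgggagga
*Gstm1*, chr3:108017974-108018223, minus strand: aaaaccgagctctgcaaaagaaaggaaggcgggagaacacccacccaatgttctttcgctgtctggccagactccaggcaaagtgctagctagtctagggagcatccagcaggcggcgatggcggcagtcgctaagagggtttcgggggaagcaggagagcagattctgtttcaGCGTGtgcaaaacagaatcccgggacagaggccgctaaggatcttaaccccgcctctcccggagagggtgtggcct
Both motifs and the core of the antioxidant response element (TGACNNNGC) were searched on both strands. TATAAA began 29 bases before the start of *Cyp2a5*, and GCGTG 76 bases before that of *Gstm1*. The windows of *Cyp2f2* and *Gpx2* held none of the 3 motifs. Over 32851 promoter windows of this length, 12.4% held TATAAA, 28.2% GCGTG and 10.2% TGACNNNGC, so each match is a description of the letters and not a site of binding. *Prdx3* (CACGC, the reverse complement of GCGTG, and TTTATA) also held matches, and *Aldh1a1*, *Cbr2* and *Gsto1* held none. Another start of *Gstm1* held TATAAA and, since its window overlaps the one shown, the same GCGTG. The promoter of *Gsta4* was not analysed here.

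After removal of poor barcodes and probable doublets, 7652 cells were kept from female mice and 5295 and 5397 from the first and second pool of male mice (male library 1 and male library 2), with a median of 3254, 1885 and 1789 UMIs (unique molecular identifiers, tags that count each captured RNA molecule once). *Ltf+*-like cells numbered 113, 376 and 423, duct-like cells 1065, 334 and 275, acinar-like cells 831, 1626 and 2011 and fibroblast-like cells 1677, 717 and 480. The classes were named from markers and not from the members, which were left out of the clustering. Their defining markers were present. *Ltf*, which encodes an iron-binding tear protein, stood at 3808 to 6019 CPM (UMIs of a gene out of 1000000 UMIs of the class) in *Ltf+*-like cells and at 3.43 to 86.6 CPM in the other classes, and *Krt5*, a keratin of basal duct cells, at 511 to 1088 CPM in duct-like cells and at 0.200 to 4.06 CPM in acinar-like and fibroblast-like cells. *Krt5* reached 122 CPM in *Ltf+*-like cells of the female library, against 3.08 and 3.24 CPM in the male libraries. Of the 912 *Ltf+*-like cells, 316 formed a cluster that also held acinar genes.

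Free RNA was plentiful. Tear-product RNA, made by acinar cells, took up 25.1 to 50.5% of the UMIs of fibroblast-like cells and 74.8 to 84.7% of those of acinar-like cells, with 56.8 to 73.7% in *Ltf+*-like and 24.6 to 54.2% in duct-like cells. Each level is therefore also set beside uncalled barcodes with 500 to 5000 UMIs, which held 88.4 to 94.2% of the UMIs outside called cells. A CPM is a share of all UMIs of a class, and is pressed down by tear RNA. Tests were instead scaled by TMM, which sets the typical gene at no change. With total UMIs as the scale, the median gene shifted by 1.48 on the log2 scale in *Ltf+* against acinar, by -1.01 in *Ltf+* against duct, by 2.54 in duct against acinar, by 1.00 in fibroblast against *Ltf+*, by 0.01 in fibroblast against duct and by 2.49 in fibroblast against acinar. Members are thus described relative to the typical gene, and calls that are lost or reversed with the scale are named.

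*Cyp2f2* and *Cyp2a5*, cytochromes P450 that oxidize small lipophilic compounds such as naphthalene (*Cyp2f2*) and coumarin (*Cyp2a5*), had the largest differences of the 9 members between *Ltf+*-like and duct-like cells. *Cyp2f2* stood at 3433, 2153 and 1198 CPM in *Ltf+*-like cells (mean 2261 ± 1121, SD, n = 3 libraries) and at 881, 261 and 224 CPM in duct-like cells, here and below with the female value first and male libraries 1 and 2 after it. Acinar-like cells held 30.8, 7.86 and 6.73 CPM and fibroblast-like cells 15.1, 15.8 and 37.9 CPM, near the 20.1 ± 7.16 CPM of uncalled barcodes. The *Ltf+* and duct libraries did not overlap each other or the other classes, whereas the acinar and fibroblast libraries overlapped. On the TMM scale, the log2 fold change of *Cyp2f2* was 5.79 ± 0.50 (SE) against acinar-like cells (adjusted p = 7.97e-07, edgeR quasi-likelihood test with Benjamini-Hochberg adjustment) and 3.36 ± 0.45 against duct-like cells (adjusted p = 6.50e-05), with the same direction in 3 of 3 libraries. Duct-like cells in turn were above acinar-like cells by 2.42 ± 0.44 (adjusted p = 0.000275).

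*Cyp2a5* parted *Ltf+*-like from duct-like cells further. It stood at 1105, 550.1 and 251 CPM in *Ltf+*-like cells, and at 17.6, 8.57 and 4.63 CPM in duct-like, 54.0, 8.42 and 5.98 CPM in acinar-like and 14.3, 4.39 and 5.41 CPM in fibroblast-like cells. Uncalled barcodes held 36.6, 7.48 and 6.02 CPM, so that duct-like and fibroblast-like cells did not stand above them in the female library, and in each class the female library was highest. The 73, 5 and 2 *Cyp2a5* UMIs of duct-like cells compare with 55.3, 12.3 and 3.73 UMIs that free RNA would give by the profile of barcodes with 10 to 100 UMIs, which rests on 4, 11 and 4 *Cyp2a5* UMIs, and with 30.4, 1.78 and 0.896 by that of barcodes with 500 to 5000 UMIs. The duct-like counts lay above the latter profile in every library, and above the former in the female library alone. The log2 fold change was 7.34 ± 0.43 in *Ltf+*-like against duct-like cells (adjusted p = 3.62e-08, edgeR) and 3.61 ± 0.29 against acinar-like cells (adjusted p = 4.19e-07). Among all pairs of classes, duct against acinar was the comparison in which both P450 genes were called in opposite directions, since *Cyp2a5* was lower in duct-like cells by 3.73 ± 0.42 on the log2 scale (adjusted p = 3.16e-06).

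*Aldh1a1*, which oxidizes retinaldehyde to retinoic acid and other aldehydes to acids, was the member with its highest level in fibroblast-like cells, at 89.7, 139 and 107 CPM (mean 112 ± 24.9, SD, n = 3). *Ltf+*-like cells held 18.2, 17.4 and 6.81 CPM, from 29, 34 and 21 UMIs, and duct-like cells 8.94, 8.57 and 9.26 CPM, from 37, 5 and 4 UMIs. Acinar-like cells held 7 UMIs in all, and 0 in male library 2, which allows up to 0.113 CPM, a limit that covers counting error only. The fibroblast libraries lay above every other library, and the *Ltf+* and duct libraries overlapped. Fibroblast-like cells exceeded *Ltf+*-like cells by 2.16 ± 0.33 (adjusted p = 7.34e-05, edgeR) and duct-like cells by 3.74 ± 0.41 (adjusted p = 2.52e-06) on the log2 scale. *Ltf+*-like cells exceeded duct-like cells by 1.58 ± 0.47 (adjusted p = 0.0228), a call lost under 6 alternatives. The fold change stayed at 1.53 with DESeq2 (adjusted p = 0.102), 1.56 after thinning (0.0587), 1.58 after subtraction of free RNA (0.0507) and 1.68 without male library 1 (0.0994). It was 1.11 without the female library (adjusted p = 0.0754, edgeR) and 0.65 with total UMIs as the scale (0.203).

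*Cbr2*, a mitochondrial carbonyl reductase known from club cells of the lung, was shared by duct-like and *Ltf+*-like cells. Duct-like cells stood at 941, 321 and 359 CPM and *Ltf+*-like cells at 682, 187 and 116 CPM. Acinar-like cells held 5.33, 0.481 and 0.454 CPM and fibroblast-like cells 3.68, 2.63 and 1.35 CPM, around the 3.13 ± 1.90 CPM of uncalled barcodes. In both epithelial classes the female library was the highest, and male values of duct-like cells lay above those of *Ltf+*-like cells. The log2 fold change was 6.00 ± 0.41 in duct-like (adjusted p = 3.32e-08, edgeR) and 5.93 ± 0.40 in *Ltf+*-like cells (adjusted p = 7.62e-08) against acinar-like cells. *Ltf+* against duct gave -0.08 ± 0.32 (adjusted p = 0.916, 95% interval -0.71 to 0.55). Without the female library it was -0.46 ± 0.14 and called (adjusted p = 0.00385), as it was with total UMIs as the scale (-0.97 ± 0.29, adjusted p = 0.00633), and 6 other settings turned its sign.

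Of the glutathione transferases, *Gsta4*, which conjugates 4-hydroxynonenal and other products of lipid peroxidation, followed the same epithelial pattern. Its levels were 124, 78.9 and 62.5 CPM in duct-like cells and 103, 65.2 and 30.8 CPM in *Ltf+*-like cells. Fibroblast-like cells held 18.9, 10.5 and 2.71 CPM and acinar-like cells 0.701, 0.321 and 0.227 CPM, which was the level of uncalled barcodes (0.622 ± 0.135 CPM). The duct and *Ltf+* libraries overlapped and lay above the rest. Against acinar-like cells the log2 fold change was 5.69 ± 0.27 in *Ltf+*-like (adjusted p = 1.50e-09, edgeR) and 5.21 ± 0.29 in duct-like cells (adjusted p = 5.93e-09). Between *Ltf+*-like and duct-like cells it was 0.48 ± 0.21 (adjusted p = 0.116, 95% interval 0.07 to 0.89), and -0.48 ± 0.26 with total UMIs as the scale. It was higher and called without the *Ltf+* cluster that also held acinar genes (0.72 ± 0.21, adjusted p = 0.0193, edgeR). The same held in cells over 2 times the median UMIs of uncalled barcodes (0.94 ± 0.24, adjusted p = 0.00676).

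*Gstm1*, which conjugates a wide range of electrophiles, stood above uncalled barcodes in *Ltf+*-like, duct-like and fibroblast-like cells. *Ltf+*-like cells held 317, 462 and 144 CPM, fibroblast-like cells 270.1, 147 and 127 CPM, and duct-like cells 173, 120.0 and 64.8 CPM, against 9.81, 4.41 and 3.44 CPM in acinar-like cells and 7.54 ± 4.49 CPM in uncalled barcodes. The 3 former classes overlapped in CPM. On the TMM scale *Ltf+*-like cells stood above duct-like cells by 2.26 ± 0.25 (adjusted p = 1.26e-05, edgeR), and fibroblast-like cells lay below *Ltf+*-like cells by 1.62 ± 0.23 on the log2 scale (adjusted p = 3.44e-05). Fibroblast against duct gave 0.64 ± 0.25 and just missed the threshold (adjusted p = 0.0525). It passed without a filter on low counts (adjusted p = 0.00663), without the female library (0.0316) and without male library 1 (0.0302).

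*Gsto1*, an omega-class transferase that reduces rather than conjugates many of its substrates, was highest in duct-like cells, at 218, 137 and 116 CPM. *Ltf+*-like cells held 129.8, 37.5 and 19.8 CPM, fibroblast-like cells 10.7, 12.3 and 18.9 CPM and acinar-like cells 3.29, 4.69 and 4.12 CPM, beside 3.47 ± 0.34 CPM in uncalled barcodes. The male duct libraries lay well above the male *Ltf+* libraries, whereas the female *Ltf+* library reached the duct range. Duct-like cells exceeded acinar-like cells by 2.66 ± 0.43 (adjusted p = 0.00011, edgeR) and fibroblast-like cells lay below duct-like cells by 3.79 ± 0.53 on the log2 scale (adjusted p = 3.49e-05). *Ltf+* against duct was -0.57 ± 0.41 (adjusted p = 0.36) in all libraries and -1.47 ± 0.20 without the female library (adjusted p = 3.03e-12). With all libraries kept it was also called with total UMIs as the scale (-1.52 ± 0.36, adjusted p = 0.0011, edgeR). Without a filter on low counts it was -0.58 ± 0.20 and called (adjusted p = 0.0296).

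*Gpx2*, a selenium-containing glutathione peroxidase of epithelia such as the gut, was found in duct-like cells at 103, 154 and 78.7 CPM and in *Ltf+*-like cells at 43.3, 212 and 41.2 CPM. Fibroblast-like cells held 2 *Gpx2* UMIs in all and acinar-like cells 45, at 0.350, 1.32 and 0.265 CPM, near the 1.02 ± 0.74 CPM of uncalled barcodes. Male library 1 was the highest library in duct-like, *Ltf+*-like and acinar-like cells, and the 2 UMIs of fibroblast-like cells are too few to rank. Pooled over libraries, the ratio of CPM to fibroblast-like cells was 336 for *Ltf+*-like cells (95% counting interval 92.7 to 2783) and 390 for duct-like cells (107 to 3228). Against acinar-like cells the log2 fold change was 5.50 ± 0.25 in *Ltf+*-like (adjusted p = 9.19e-10, edgeR) and 5.14 ± 0.26 in duct-like cells (adjusted p = 3.31e-09). *Ltf+* against duct was 0.36 ± 0.20 (adjusted p = 0.221). It was 0.67 ± 0.17 without the female library (adjusted p = 0.000418) and -0.57 ± 0.27 with total UMIs as the scale.

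*Prdx3*, the peroxiredoxin of the mitochondrial matrix, was measured at similar levels in most classes. Its CPM were 45.8, 44.1 and 28.5 in *Ltf+*-like, 43.3, 27.4 and 27.8 in duct-like, 40.6, 36.9 and 14.9 in fibroblast-like and 15.7, 15.8 and 12.5 in acinar-like cells, against 12.7 ± 0.70 in uncalled barcodes. Its direction depended on the scale. Relative to the typical gene, *Prdx3* was lower in duct-like than in acinar-like cells by 1.39 ± 0.20 on the log2 scale (adjusted p = 3.52e-05, edgeR), but with total UMIs it was higher by 1.16 ± 0.28 (adjusted p = 0.000307). Fibroblast against acinar turned in the same way, from -1.42 ± 0.19 to 1.06 ± 0.26. *Ltf+* against duct fell from 1.21 ± 0.21 (adjusted p = 0.000648, edgeR) to 0.24 ± 0.28 and lost its call (adjusted p = 0.473). Fibroblast against *Ltf+* moved from -1.24 ± 0.20 (adjusted p = 9.38e-05, edgeR) to -0.34 ± 0.27 and lost its call as well (0.264). With tear-product UMIs left out of the totals, the levels were 106, 114 and 109 CPM in *Ltf+*-like, 62.4, 95.3 and 81.7 in acinar-like, 57.4, 56.8 and 60.6 in duct-like and 54.2, 68.8 and 30.0 in fibroblast-like cells, and the *Ltf+* libraries lay above all others.

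**Figure D1:**
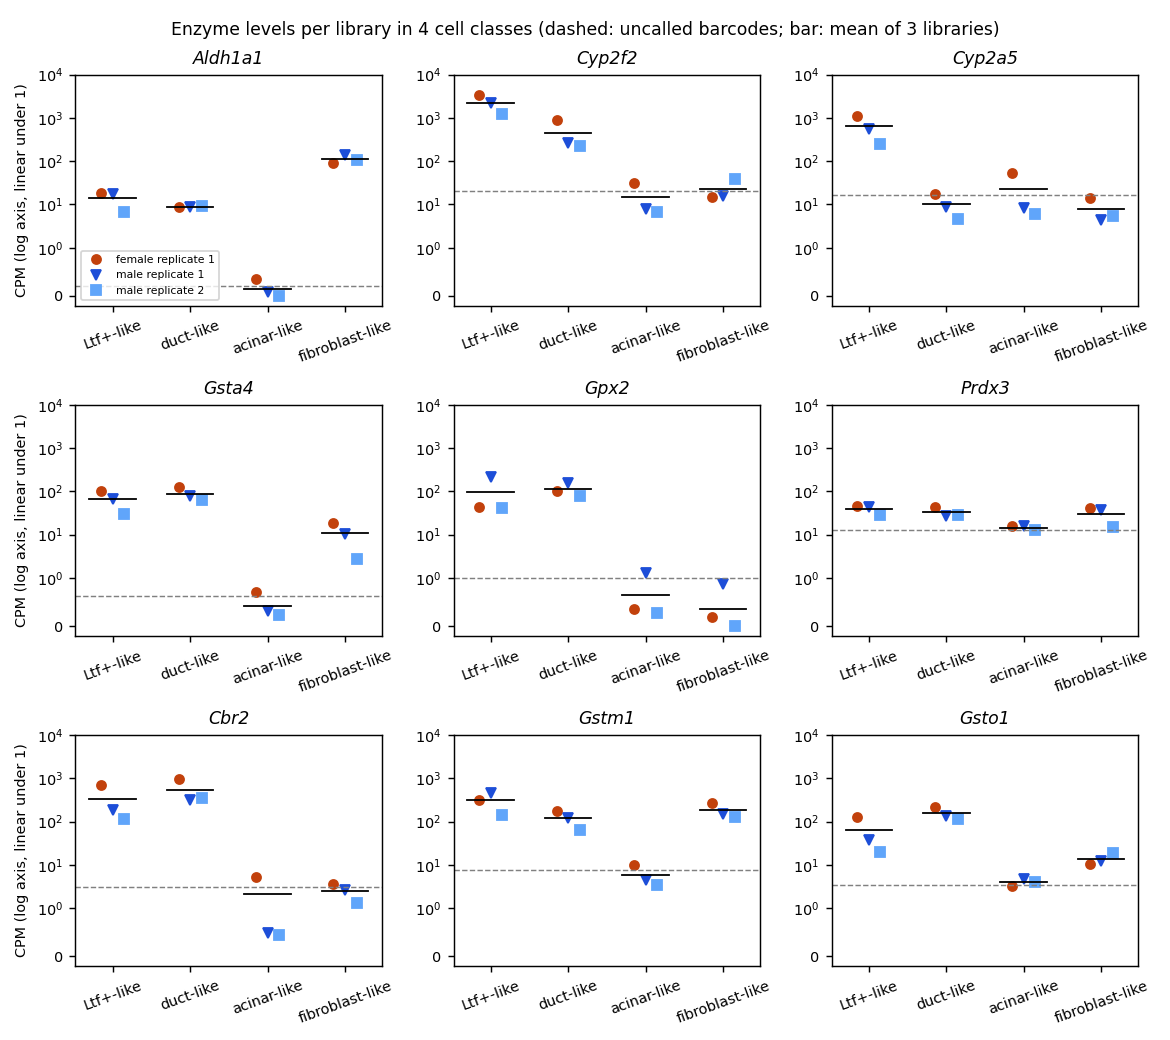
Level of each of the 9 enzyme genes (CPM, log axis, linear under 1) in *Ltf+*-like, duct-like, acinar-like and fibroblast-like cells; points are libraries, bars their mean and dashed lines the mean level in uncalled barcodes with 500 to 5000 UMIs. *Cyp2f2* and *Cyp2a5* stand highest in *Ltf+*-like cells, *Aldh1a1* in fibroblast-like cells, and acinar-like cells lie near the dashed line for most genes.

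The calls of the members were set beside those of all 10207 genes tested. In *Ltf+* against acinar, 8 of 9 members were higher and 0 lower, beside 30% of all genes called and 14.1% called higher, with *Prdx3* not called (-0.17 ± 0.17, adjusted p = 0.486). In *Ltf+* against duct, 5 were higher and 0 lower, where 25.1% of all genes were called and 13% higher. In duct against acinar, 7 were higher and 2, *Cyp2a5* and *Prdx3*, lower (49.2% of all genes called, 24.9% higher and 24.3% lower). The median log2 fold change of the members was 5.26, 1.21 and 2.66 in these comparisons, against -0.06, -0.02 and 0.00 over all genes. The study gave several members as markers of these clusters, so the counts are not independent evidence of their direction. Over all genes, 1440 were higher and 1624 lower in *Ltf+* against acinar, 1325 and 1232 in *Ltf+* against duct and 2545 and 2477 in duct against acinar, against 7611 and 57, 318 and 5089, and 9034 and 189 with total UMIs as the scale, where 9, 3 and 8 members were higher and 0, 2 and 1 lower.

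Members were mostly lower in fibroblast-like than in *Ltf+*-like and duct-like cells, whereas the balance against acinar-like cells turned with the scale. Against *Ltf+*-like cells, 8 members were lower and only *Aldh1a1* was higher (46.4% of all genes called, 24.7% higher and 21.7% lower). Against duct-like cells, 5 were lower and *Aldh1a1* was higher (37% called, 21% higher and 16% lower), and against acinar-like cells 5 were lower and 3 higher, *Aldh1a1*, *Gstm1* and *Gsta4* (60.9% called, 31.5% higher and 29.3% lower). The medians were -3.44, -2.96 and -1.42. Over all genes, 2521 were higher and 2212 lower in fibroblast against *Ltf+* and 3219 and 2995 in fibroblast against acinar, against 5654 and 930, and 8920 and 430, with total UMIs as the scale. On that scale 1 member was higher and 7 lower than in *Ltf+*-like cells and 1 and 5 than in duct-like cells, but 5 were higher and 1, *Cyp2a5*, lower than in acinar-like cells, with *Prdx3* and *Gsto1* called in the opposite direction. *Aldh1a1* rose by 7.42 ± 0.48 and *Gstm1* by 2.49 ± 0.24 over acinar-like cells (adjusted p = 3.95e-09 and 3.74e-07, edgeR). The fibroblast UMIs of *Cyp2f2* (82, 18 and 28) were below the 109, 67.4 and 35.8 UMIs that free RNA would give by barcodes with 10 to 100 UMIs, and above the 36.7, 7.33 and 4.64 given by barcodes with 500 to 5000 UMIs. *Cyp2f2* and *Cbr2* were called lower than in acinar-like cells, by 1.84 and 2.31 on the log2 scale, but their differences were 0.76 and 0.36 with total UMIs as the scale. *Cyp2f2* lost the call without *Tfrc*-hi and *Car6*-hi acinar cells (adjusted p = 0.442, edgeR) and without the female library (0.064), and *Cbr2* without the female library (0.923). The call of *Gpx2* was lost without *Tfrc*-hi and *Car6*-hi cells (0.058) and with total UMIs as the scale (0.385). The higher level of *Gsta4* (2.25) was 0.68 after thinning and lost its call (adjusted p = 0.338, edgeR).

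**Figure D2:**
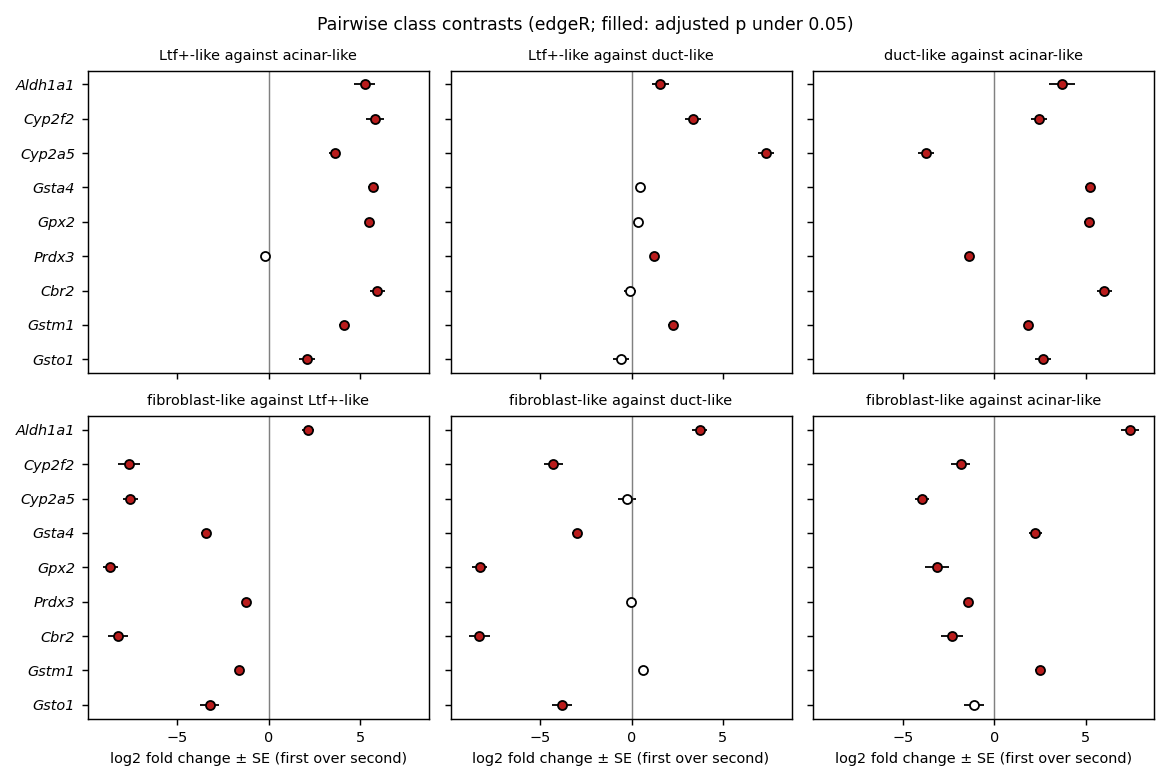
Log2 fold change (± SE) of the 9 members in the 6 pairs of classes, first class over second; filled points passed an adjusted p of 0.05 with edgeR. The members lie right of 0 in *Ltf+* against acinar, except *Prdx3*, and mostly left of 0 in fibroblast against *Ltf+*, except *Aldh1a1*.

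Where the transcripts of each gene were counted is a separate question from the level per class, since the classes differ in size and depth. *Ltf+*-like cells made up 1.48, 7.10 and 7.84% of the kept cells and 2.88, 5.16 and 7.47% of their UMIs. They nevertheless held 55.1 to 90.5% of all *Cyp2f2* UMIs (mean 78.7%), 51.0 to 80.5% of *Cyp2a5* UMIs (mean 70.1%) and 13.2 to 75.0% of *Gpx2* UMIs (mean 53.9%). The shares in the female library were the lowest for each of these genes. Duct-like cells were 13.9% of cells there and held 36.7 and 81.3% of the *Cyp2f2* and *Gpx2* UMIs. They held 2.11% of the *Cyp2a5* UMIs of that library, where acinar-like cells held 22.3%. Fibroblast-like cells held 72.5 to 83.7% of *Aldh1a1* UMIs. Acinar-like cells held 17.6, 56.3 and 54.4% of *Prdx3* UMIs, below their 25.8, 66.1 and 64.0% of all UMIs.

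Within the classes the members were uneven. The 596 *Ltf+*-like cells with less tear RNA held *Cyp2f2* at 4438 ± 1140 CPM (SD, n = 3), against 266 ± 105 CPM in the 316 cells with acinar genes, and *Cyp2a5* at 1179 ± 573 against 95.6 ± 45.3 CPM. With tear-product UMIs left out of the totals the levels were still 8063 ± 2143 against 1326 ± 547 CPM for *Cyp2f2*, and *Aldh1a1* was at 50.4 ± 11.7 against 6.64 ± 2.29 CPM. The 3 libraries of one cluster did not overlap those of the other for these genes. Among acinar-like cells, the *Car6*-hi cluster (92, 170 and 134 cells) stood out, with *Cyp2f2* at 172 ± 23.2 and *Cyp2a5* at 129 ± 10.5 CPM, where other acinar-like cells held 5.87 ± 6.07 and 16.9 ± 23.2 CPM. *Car6*-hi cells were 6.66 to 11.1% of acinar-like cells and held 62.3 to 68.4% of the *Cyp2f2* UMIs and 28.2 to 53.2% of the *Cyp2a5* UMIs of that class. Of the few *Gpx2* UMIs of acinar-like cells (5, 33 and 7), they held 1, 25 and 4.

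Both duct clusters carried *Cyp2f2*, *Cbr2*, *Gpx2* and *Gsto1*. The cluster led by *Wfdc2* and *Gpha2* held *Cyp2f2* at 535 ± 353 CPM and the cluster led by *Dnajb1* and *Smoc2* at 386 ± 375 CPM, with the former higher in 3 of 3 libraries (938, 393 and 276 against 818, 174 and 165 CPM). The difference was not tested. Genes of the dissociation stress response took 9998 to 11892 CPM in the former and 35049 to 47481 CPM in the latter, with tear-product UMIs left out, and 3062 to 4960 CPM in *Ltf+*-like cells. Their part in the differences between duct-like and *Ltf+*-like cells was not tested. Myoepithelial-like cells, which contract around the acini, held *Cbr2* at 160.3 ± 16.7 and *Gsto1* at 98.9 ± 25.3 CPM with tear-product UMIs left out, below both duct clusters.

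Among fibroblasts, *Aldh1a1* was found in every cluster. It stood at 309 ± 117 CPM in the *Cilp* cluster (64, 34 and 22 cells), at 108 ± 26.4 CPM in parenchymal-like and 107 ± 56.4 CPM in adventitial-like cells and at 64.8 ± 27.4 CPM in an unnamed cluster led by *Cxcl13*. The lowest *Cilp* library, at 175 CPM, lay above the highest library of the other clusters, at 159 CPM, and the other clusters overlapped. With tear-product UMIs left out, *Gstm1* ranged from 272 to 496 CPM over these clusters and was at 349 CPM in mural-like cells, the contractile cells of vessel walls. Endothelial-like and lymphoid-like cells had 0 UMIs of *Aldh1a1* in all 3 libraries, which allows up to 1.15 to 6.46 CPM in endothelial-like and 1.49 to 6.79 CPM in lymphoid-like cells.

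**Figure D3:**
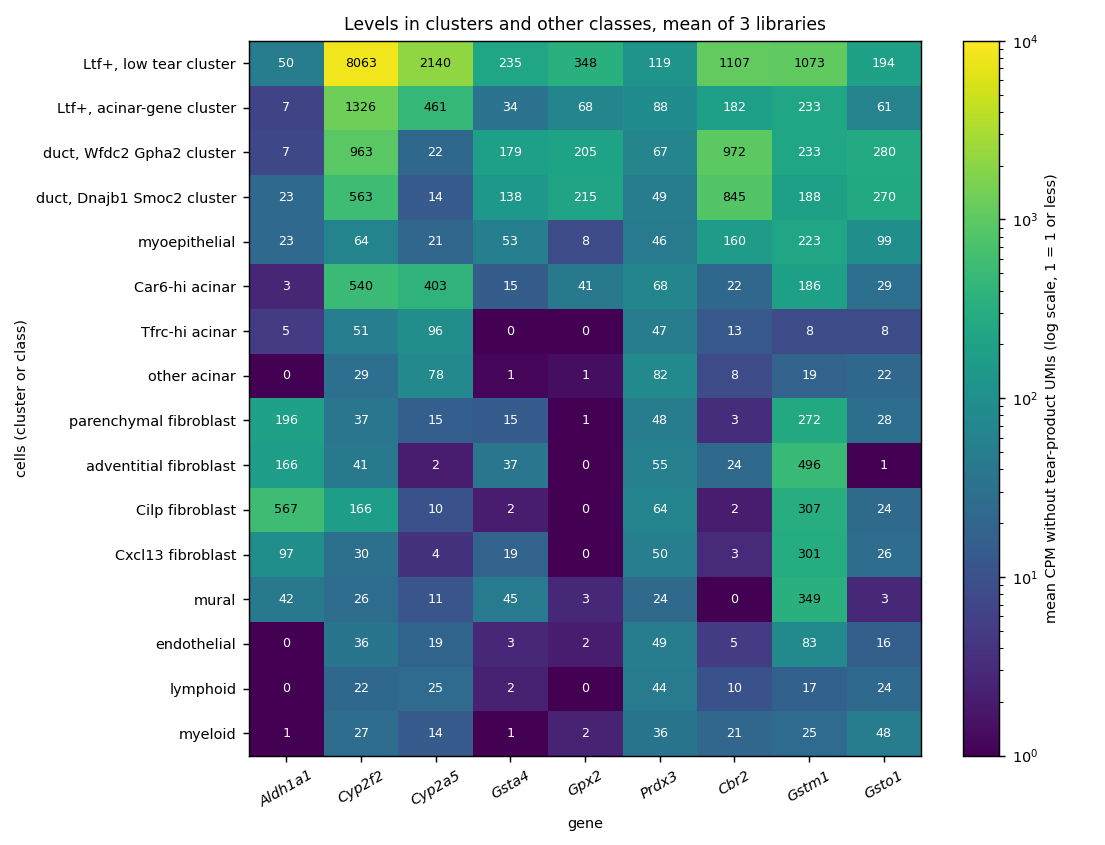
Mean CPM over 3 libraries (color, log scale; numbers in cells) of the 9 members in clusters and other classes, with tear-product UMIs left out of the totals. *Cyp2f2* reads 8063 in the low tear *Ltf+* cluster and 540.0 in *Car6*-hi acinar cells, and *Aldh1a1* reads 567 in *Cilp* fibroblasts.

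The share of cells with a transcript was counted as well. With each cell thinned to 1000 UMIs, which left out 1 to 17 *Ltf+*-like and 51 to 149 fibroblast-like cells a library, *Cyp2f2* was detected in 54.5, 79.7 and 65.5% of *Ltf+*-like cells and in 51.9, 21.4 and 20.3% of duct-like cells. Lymphoid-like cells, which should lack it, gave a mean of 1.28%, and acinar-like and fibroblast-like cells 2.98 and 1.98%. *Cbr2* was detected in a mean of 37.2% of duct-like and 31.0% of *Ltf+*-like cells, *Cyp2a5* in 31.1% of *Ltf+*-like and 1.13% of duct-like cells, the latter no higher than the 1.37% of lymphoid-like cells and thus at background, and *Gstm1* in 31.9% of *Ltf+*-like, 12.6% of duct-like and 18.1% of fibroblast-like cells. *Aldh1a1* was detected in 11.2% of fibroblast-like cells (8.86 to 12.8%) and 2.39% of *Ltf+*-like cells (0.985 to 3.51%), and in none of the lymphoid-like cells. The share of cells with 4 or more members was 20.5, 21.1 and 11.3% in *Ltf+*-like, 4.98, 0.621 and 0% in duct-like and at most 0.122% in acinar-like and fibroblast-like cells. Unthinned, with median depths of 2380 to 4964 UMIs in *Ltf+*-like and 1028 to 2286 UMIs in lymphoid-like cells, *Cyp2f2* was found in a mean of 86.3% of *Ltf+*-like, 45.8% of duct-like and 10.7% of acinar-like cells, and in 1.82% of lymphoid-like cells.

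**Figure D4:**
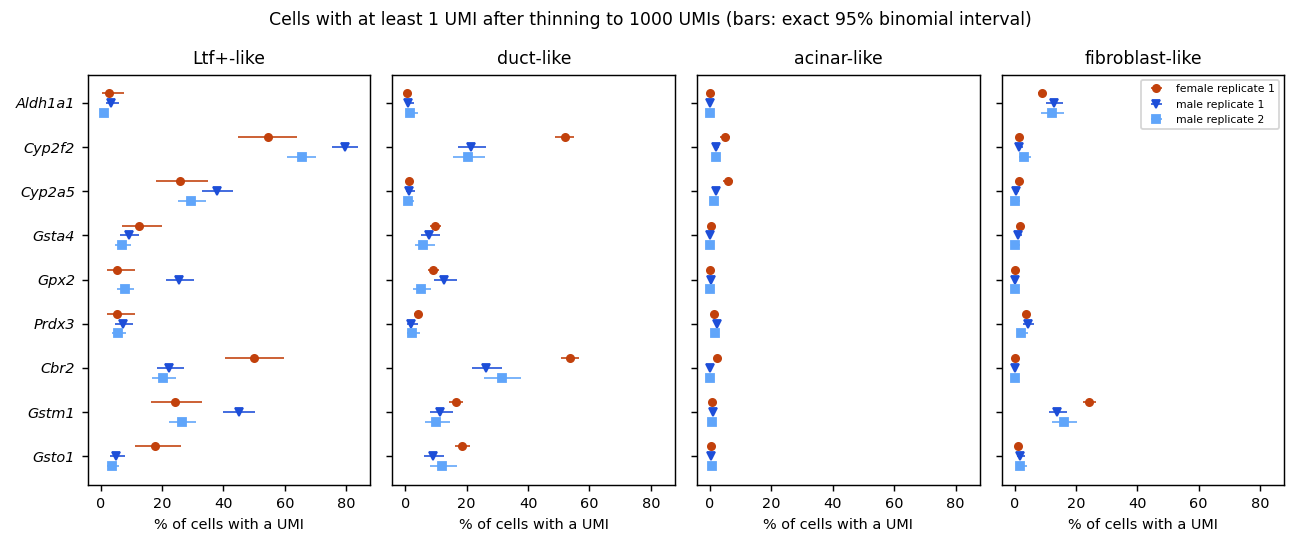
Percent of cells with at least 1 UMI of each member after thinning to 1000 UMIs per cell, by class; points are libraries and bars exact 95% binomial intervals, which cover counting error only. *Cyp2f2* is found in over 54% of *Ltf+*-like cells in each library and *Cyp2a5* in hardly any duct-like cell.

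The study set apart *Ltf+* cells with and without *Aldh1a1*, so this split was described without a test. *Ltf+*-like cells with an *Aldh1a1* UMI numbered 16, 23 and 20, and those without 97, 353 and 403. *Cyp2f2* stood at 12421, 8763 and 2504 CPM in the former and at 2359, 1816 and 1118 CPM in the latter, and *Gpx2* at 159, 1099 and 139 against 29.5, 167 and 35.1 CPM. *Gsta4* stood at 311, 254 and 66.9 against 78.0, 55.6 and 28.6 CPM, and *Prdx3* at 182, 180 and 39.0 against 29.5, 37.2 and 27.9 CPM. *Kit*, the receptor of stem cell factor, had a log2 ratio of 2.96, 2.03 and 1.41, and of 1.79, 0.90 and 1.01 with tear-product UMIs left out of the totals. Of the 8 other members, 5 were at least 2-fold higher in every library (*Cyp2f2*, *Gsta4*, *Gpx2*, *Cbr2* and *Gstm1*), as were 14.8% of all genes.

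The positive cells were also deeper and held less tear RNA. Their median UMIs were 10264.5, 3571 and 4971, against 4523, 2363 and 2528, and the median tear share was 12.3, 21.2 and 45.5% against 48.6, 42.3 and 47.9%. With tear-product UMIs left out of the totals, 1 of 8 members, *Gpx2*, was at least 2-fold higher in every library (1.37% of all genes), with log2 ratios of 1.26, 1.59 and 1.59. Within the low tear cluster it was again *Gpx2* alone (2.61% of all genes). After thinning, 0 of the 6 members that could be followed met the mark (1.93%), with 3 positive cells left in the female library. Without male library 2, 7 of 8 members met it, but so did 56.3% of all genes.

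**Figure D5:**
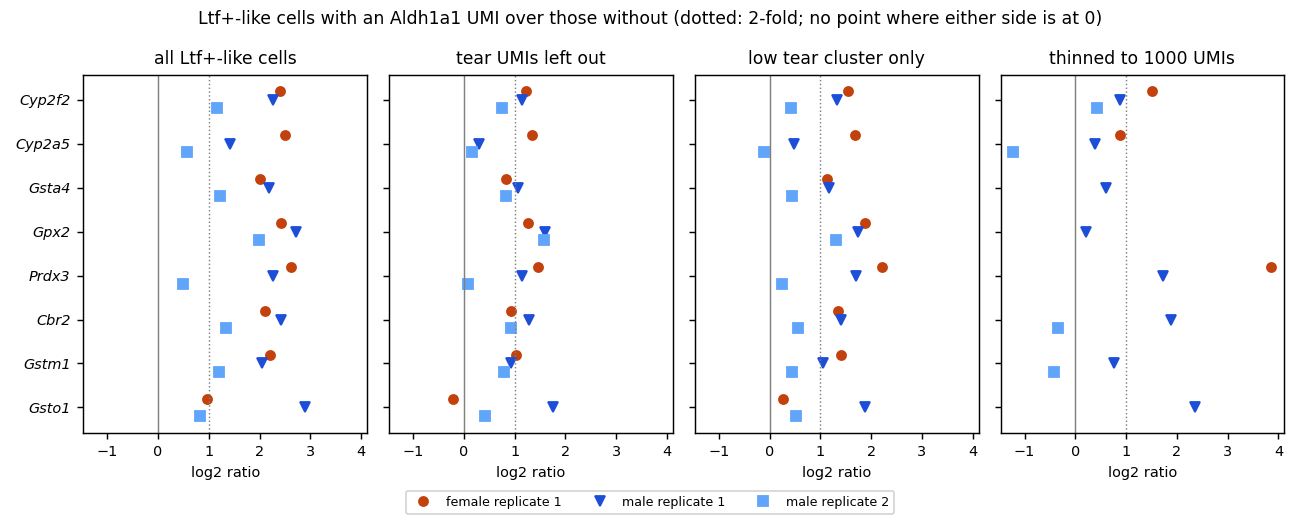
Log2 ratio of CPM, *Ltf+*-like cells with an *Aldh1a1* UMI over those without, per library, under 4 ways of counting; the dotted line marks 2-fold, and no point is drawn where either side is at 0. The points of all cells lie mostly right of the dotted line and move left toward it when tear UMIs are left out or the cluster with acinar genes is dropped.

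The members were then set beside 6 lists of other enzymes of the same pathways, of which 109 genes were tested. Counts and fold changes of the lists are given on the TMM scale only. Their dependence on the scale is not given, and in *Ltf+* against duct the median gene shifted by -1.01 with total UMIs. In *Ltf+* against acinar, 41 of these were higher and 16 lower (37.6% and 14.7%, beside 14.1% and 15.9% of all genes), and in *Ltf+* against duct 41 were higher and 11 lower (37.6% and 10.1%, beside 13% and 12.1%). In duct against acinar 36 were higher and 33 lower (33.0% and 30.3%, beside 24.9% and 24.3%). Fibroblast-like cells had 23 higher and 50 lower than *Ltf+*-like cells (21.1% and 45.9%, beside 24.7% and 21.7%). Against duct-like cells 29 were higher and 27 lower (26.6% and 24.8%, beside 21% and 16%), and against acinar-like cells 35 and 44 (32.1% and 40.4%, beside 31.5% and 29.3%).

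Among oxidizing enzymes, 4 of 9 P450 genes were higher and 0 lower in *Ltf+*-like than in duct-like cells. *Por*, the reductase that passes electrons from NADPH to all microsomal P450 enzymes, was at 173, 129 and 91.1 CPM in *Ltf+*-like, 131, 41.2 and 64.8 CPM in duct-like and 21.4, 13.9 and 12.0 CPM in acinar-like cells, with a log2 fold change of 1.74 ± 0.18 over duct-like cells (adjusted p = 8.25e-06, edgeR). *Cyp2b10*, another P450, was lower in duct-like than in acinar-like cells by 4.01 ± 0.29 (adjusted p = 4.90e-08), in the direction of *Cyp2a5*. *Cyp1b1*, a P450 that oxidizes estrogens and aromatic hydrocarbons, was at 30.0, 22.8 and 12.2 CPM in fibroblast-like cells and had 0 UMIs in *Ltf+*-like and acinar-like cells. The lists of other phase I enzymes had 13 of 39 higher and 4 lower in *Ltf+* against duct. *Aldh3a1*, an aldehyde dehydrogenase of the cornea, was one of the 4, lower by 2.92 ± 0.41 (adjusted p = 0.000105). The flavin monooxygenases *Fmo1* and *Fmo2* were higher in *Ltf+*-like than in acinar-like cells by 6.91 ± 0.24 and 5.51 ± 0.39 (adjusted p = 1.74e-10 and 1.02e-07).

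Among conjugating enzymes, 7 of 13 glutathione transferases were higher and 0 lower in *Ltf+* against duct. *Gsta3* stood at 730, 993 and 459 CPM in *Ltf+*-like and 463, 271 and 245 CPM in duct-like cells (log2 fold change 2.06 ± 0.37, adjusted p = 0.000777, edgeR). *Mgst1*, a membrane-bound transferase, was highest in fibroblast-like cells, at 365, 206 and 212 CPM, and exceeded acinar-like cells there by 7.41 ± 0.28 (adjusted p = 2.00e-11). *Sult1d1*, a sulfotransferase, marked *Ltf+*-like cells, with 109, 90.8 and 30.8 CPM against 1.69, 3.43 and 2.31 CPM in duct-like cells (6.63 ± 0.34, adjusted p = 1.15e-08), from 173, 177 and 95 against 7, 2 and 1 UMIs. Of the 6 genes tested on that list, 2 were higher and 2 lower in *Ltf+* against duct.

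Among antioxidant genes, 10 of 27 were higher and 4 lower in *Ltf+* against duct. The largest changes were negative, *Sesn1* at -2.95 ± 0.39 and *Sesn2* at -2.07 ± 0.52 on the log2 scale (adjusted p = 6.12e-05 and 0.00828, edgeR). *Prdx1* was higher by 1.89 ± 0.16 and *Gpx4*, which protects membranes from lipid peroxides, by 1.48 ± 0.18 (adjusted p = 1.66e-06 and 3.06e-05, edgeR). Some secreted antioxidants were found in fibroblast-like cells. *Gpx3*, the plasma glutathione peroxidase, was at 212, 185 and 114 CPM there and had 0 UMIs in *Ltf+*-like cells, and *Sod3*, the extracellular superoxide dismutase, was at 79.0, 42.1 and 33.8 CPM with 0 UMIs in duct-like cells. Of 15 genes for the supply of glutathione and NADPH, 5 were higher and 1 lower in *Ltf+* against duct. *Me1*, *Taldo1* and *Pgd*, which make NADPH or feed the pentose phosphate pathway, exceeded duct-like cells by 3.81 ± 0.33, 2.09 ± 0.20 and 1.75 ± 0.26 (adjusted p = 1.76e-06, 3.70e-06 and 0.000163). *Me1* and *Taldo1* were also lower in duct-like than in acinar-like cells, by 3.52 ± 0.32 and 1.60 ± 0.19 (adjusted p = 4.09e-07 and 6.53e-06, edgeR). Their higher level over duct-like cells is thus not particular to *Ltf+*-like cells. *Gclm*, the modifier subunit of the first enzyme of glutathione synthesis, was lower in fibroblast-like than in *Ltf+*-like cells by 2.94 ± 0.30 on the log2 scale (adjusted p = 1.05e-06).

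Likeness was taken over 33 sums of a cell class and library, from CPM with tear-product UMIs kept in the totals. The gene most like *Cyp2f2* of 9784 was *Acsm1* (Pearson r = 0.95 and Spearman rho = 0.75), followed by *Cxcl17* (r = 0.94) and *Gsta3* (r = 0.93). *Cbr2* and *Gsto1* were alike (r = 0.91, rho = 0.83) and shared *Krt7*, a duct keratin, among their 3 most like genes (r = 0.98 and 0.90). *Cyp2a5* was most like *A2ml1* (r = 0.91) and had *Me1* in the second place (r = 0.85), *Gpx2* was most like *Ckmt1* (r = 0.91), *Gsta4* most like *Krt7* (r = 0.90) and *Gstm1* most like *Cyb5a* (r = 0.91), with *Gstm2* after it (r = 0.89). *Aldh1a1* had *Dclk1* (r = 0.94) and *Gsn* (r = 0.93), and *Prdx3* no gene above r = 0.81 (*Rpl7l1*). Sums of one library share its depth and its free RNA, so these values only describe the order of likeness.

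Between libraries, *Cyp2f2*, *Cyp2a5*, *Gsta4*, *Cbr2* and *Gsto1* were highest in the female library in both *Ltf+*-like and duct-like cells, *Gpx2* was highest in male library 1 in both, and *Gstm1* was highest in male library 1 in *Ltf+*-like cells only. The tear share was lowest in the female library in all 4 classes. With tear-product UMIs left out, *Cyp2f2* stood at 7947, 5560.4 and 4559.8 CPM in *Ltf+*-like and at 1169, 540.0 and 489.7 CPM in duct-like cells, and *Cbr2* at 1578, 484 and 440.2 and at 1248, 664 and 783 CPM. For *Cyp2f2* and *Cbr2* the female values thus remained the highest on that scale as well. *Cyp2a5*, *Gsta4* and *Gsto1* are not given on it here. In duct-like cells the tear share was 24.6% in the female library and 51.7 and 54.2% in the male libraries, so that their CPM there differ by this share too. With 1 female library prepared elsewhere, the difference was not tested.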

How the data were processed

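UMI counts of 3 libraries (10x 3′ v3.1 chemistry) were analysed. The authors made the deposited counts with Cell Ranger 6.1.2 on mm10, per the labels, and the counts were not normalized. Barcodes with more than 500 UMIs and 200 genes and under 15% mitochondrial UMIs were kept, and the highest doublet scores were removed at 0.8% per 1000 barcodes (646, 287 and 315 cells). The libraries shared 8, 13 and 11 barcodes in pairs. Cells were clustered with Seurat 5.3.0 (sctransform 0.4.2, 3000 features, 30 dimensions, resolution 1), with the members and 273 enzyme genes in all left out of the features. Clusters were named from fixed markers (score of at least 0.5 and 3 raised markers); a rule that left clusters led by genes of another lineage unnamed was set after the clusters were seen, and names may differ from the study's.

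UMIs were summed per library and class, giving 12 sums, and tested with edgeR 4.0.16 (quasi-likelihood, TMM, library as a block) over 10207 genes, with Benjamini-Hochberg adjustment and calls under 0.05. The block was used because the sums of a library come from 1 suspension. The script was tested on simulated data. CPM are UMIs of a gene out of 1000000 UMIs of a class in a library. Intervals and limits from counts of 0 (3 UMIs) cover counting error only. All 9 members were tested in every comparison, and only some of the genes of largest change per list were named. The members and lists were chosen with earlier results of these data known. Alternatives were DESeq2 1.42.0, another scale, filters, free RNA subtraction, thinning and libraries left out.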

Additional observations from a re-analysis of the deposited data

Results flagged for a closer look

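In *Ltf+* against duct, the female library and both male libraries lay on opposite sides of 0 for 3 members, which was not tested. The log2 ratio of *Gpx2* was -0.0237 in the female library against 0.92 and 0.09 in the male libraries. That of *Cbr2* was 0.75 against -0.31 and -0.59, and that of *Gsto1* was 0.47 against -1.40 and -1.51. The sexes differ in sequencing core and day as well, and *Krt5*, a duct marker, was also higher in *Ltf+*-like cells of the female library (122 CPM against 3.08 and 3.24 CPM). The part of this difference in the ratios was not tested.

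All members were also found in uncalled barcodes of 500 to 5000 UMIs. Their mean CPM there was 0.211 for *Aldh1a1*, 20.1 for *Cyp2f2*, 16.7 for *Cyp2a5*, 0.622 for *Gsta4*, 1.02 for *Gpx2*, 12.7 for *Prdx3*, 3.13 for *Cbr2*, 7.54 for *Gstm1* and 3.47 for *Gsto1*.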

How the results depend on the processing

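Of 810 refits of member tests, 758 kept their direction and side of the threshold, 16 lost the call, 17 gained it and 19 turned direction; 36 of the 45 calls held under every alternative. With total UMIs as the scale, fibroblast against acinar turned to 0.76 (*Cyp2f2*), 1.06 (*Prdx3*), 0.36 (*Cbr2*) and 1.47 (*Gsto1*), *Ltf+* against duct to -0.48 (*Gsta4*) and -0.57 (*Gpx2*), and *Prdx3* to 1.40 in *Ltf+* against acinar and 1.16 in duct against acinar, as the median gene shifted. After thinning, *Prdx3* was 0.22 in *Ltf+* against acinar and 0.29 in fibroblast against duct, and *Cbr2* was 0.0451 in *Ltf+* against duct. *Prdx3* in fibroblast against duct was 0.0019 with mitochondrial shares under 5% and 0.00874 in cells over 2 times the uncalled median, where *Cbr2* in *Ltf+* against duct was 0.38. That of *Cbr2* was 0.17 without the mixed cluster and 0.18 with no replicate block. With a library left out it ranged from -0.46 to 0.18, and *Prdx3* in fibroblast against duct from -0.21 to 0.14.

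Genes called rose with total UMIs to 7668 (*Ltf+* against acinar), 5407 (*Ltf+* against duct), 9223 (duct against acinar), 9350 (fibroblast against acinar) and 6584 (fibroblast against *Ltf+*), and fell to 3178 in fibroblast against duct. After thinning, which leaves fewer UMIs, they fell to 1310, 861, 2111, 1927, 1862 and 2743 in the 6 comparisons, and with mitochondrial shares under 5% to 1845 in *Ltf+* against acinar. With a library left out they ranged from 1669 to 3265 in *Ltf+* against acinar and from 1485 to 2206 in *Ltf+* against duct. Members at least 2-fold higher in *Aldh1a1*+ cells numbered 0 after thinning, 1 with tear-product UMIs left out and 1 without the mixed cluster. With no replicate block, 2202, 2047, 4665, 4210, 3072 and 5766 genes were called, and of the member calls that of *Cbr2* in fibroblast against acinar was lost (adjusted p = 0.0833, edgeR). Subtraction of the deep uncalled profile, cells over 2 times the uncalled median and *Ltf+* without the mixed cluster were chosen after seeing the data. The causes of these changes were not tested.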
